A study of Mus musculus with 4 samples.

Results

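The RNA of fibronectin and of 9 secreted proteins that sit in or beside the extracellular matrix (ECM) was measured in mouse podocytes. The genes were Fn1, Tnc, Thbs1, Thbs2, Sparc, Postn, Spp1, Fbn1, Fbln2 and Ccbe1. They were chosen by symbol as a named group of matrix proteins, with earlier results of these data known. All 10 were found once each among the 54532 genes of the deposited count table. The cells are labelled MPC5, a mouse podocyte line, and the methods describe a conditionally immortalized line grown with interferon-γ and then differentiated without it. The IL-12 treatment group holds 2 libraries of cells that received IL-12 (400 ng/ml) over 6 h. The control group holds 2 libraries of cells given saline, and neither the labels nor the methods give a time for them. All libraries come from this line, and no source says that a group's libraries were grown as separate cultures, so p-values measure only the spread between these libraries. The comparison asks which of these genes changed with IL-12, a cytokine whose effect on podocytes the study examined.

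Fibronectin is a dimeric glycoprotein that cells pull into fibrils through integrins, and these fibrils serve as a scaffold for other matrix proteins. Matricellular proteins, such as the thrombospondins, tenascin-C, SPARC, periostin and osteopontin, are secreted into the matrix but mainly adjust how cells adhere and signal rather than bear load. Fibrillin-1 and fibulin-2 belong to the microfibrils and elastic fibres, and CCBE1 is a secreted cofactor for the activation of a lymphatic growth factor. In the kidney, several of these proteins are known to accumulate in scarred glomeruli.

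The libraries held 18355379 to 20098012 counts. CPM values are counts scaled to a common library total with TMM factors, and 3 counts, taken here as the limit that a count of 0 allows, correspond to 0.152 to 0.166 CPM. SD values are over 2 libraries, and floors and intervals of single counts cover counting error only. The podocyte identity was checked on 12 markers. Nphs1, which encodes the slit diaphragm protein nephrin, had at most 1 count in a library, Ptpro had 0 in all, and Wt1 had 4 to 16. Synpo, Kirrel, Actn4, Cd2ap and Podxl were above 50 CPM, so nephrin RNA was nearly absent while actin-linked markers were present. Of the 8 podocyte markers tested, 3 were higher and 2 lower, where 16.1% of all genes tested were higher and 14.4% lower. The log2 fold changes were -0.66 for Synpo and -0.54 for Plce1, and at most 0.40 for the higher ones. Among 8 fibroblast or mesangial markers, Lum had 0 counts, Dcn and Itga8 at most 1 and Pdgfra at most 3. The summed level of these 8 was 206 CPM in each control library and 222 to 231 CPM in the IL-12 libraries. In that list, Pdgfrb and Acta2 were higher and Gata3 lower (log2 fold changes of 0.23, 0.14 and -0.33). The 6 endothelial markers summed to at most 0.808 CPM and the 6 leukocyte markers to at most 7.29 CPM in any library. The 5 tubular markers, mostly Lrp2, summed to 634 to 660 CPM in control libraries and 518 to 559 CPM in IL-12 libraries, and Lrp2 was lower by -0.27 on the log2 scale. The part of these shifts in the changes described here was not tested.

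Of the matrix genes, 7 rose and 0 fell. By edgeR's quasi-likelihood test, with an adjusted p below 0.05 over the 14095 genes tested, 7 of the 9 tested genes were higher in the IL-12 treatment group: Ccbe1, Spp1, Fbln2, Postn, Fn1, Tnc and Thbs1. Of all genes tested, 16.1% were higher and 14.4% lower by the same rule. Higher genes thus made up 52.8% of all calls, and 40.5% with scaling by total counts alone, under which the same 7 matrix genes were called higher. Ccbe1 and Spp1 also passed the 2-fold limit that the study used, which 0.858% of all genes tested passed upward and 0.752% downward. Sparc and Fbn1 did not pass the test. Thbs2 had no count in any library and could not be tested. In 8 of the 9 tested genes, Fbn1 included, both IL-12 libraries lay above both control libraries, as was the case for 31.7% of all genes tested, while 31.2% lay below. The median log2 fold change of the 9 genes was 0.38, and that of all genes tested was -0.0022. Because the genes were chosen with earlier results of these data known, these counts and medians are descriptions. Of the genes, 6 had over 100 CPM on average, and 5 of these were higher. Genes at that level pass more often, and 32.1% of them were higher. In bulk RNA, a change in the number of cells that make a transcript and a change in the amount per cell cannot be told apart.

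**Figure D1:**
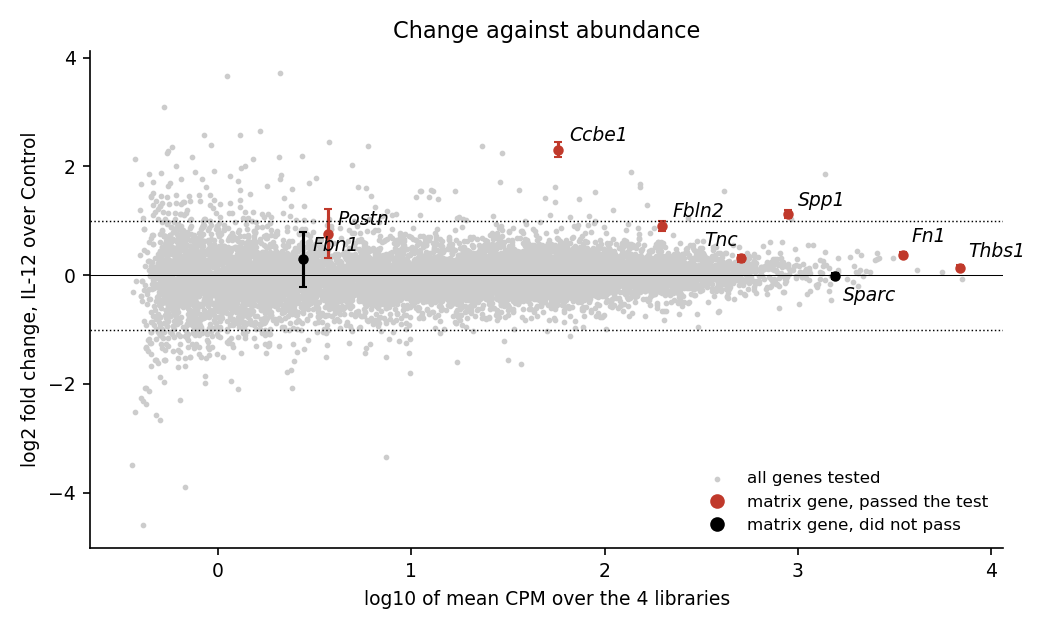
Log2 fold change of the IL-12 treatment group over the control group (vertical axis) against the log10 of mean CPM (horizontal axis), with all genes tested in grey, the 9 tested matrix genes as labelled points, their 95% intervals as bars and dotted lines at 2-fold. Ccbe1 at 2.31 and Spp1 at 1.13 lie above the upper dotted line, Thbs1 and Fn1 lie at the far right with small changes, and Sparc lies on the zero line.

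Levels were compared between genes per length, with the deposited FPKM values. In the control group the order was Thbs1 (1081 ± 7.62 FPKM, SD, n = 2), Sparc (411 ± 13.5), Spp1 (339 ± 15.7), Fn1 (261 ± 2.41), Tnc (58.6 ± 1.77), Fbln2 (21.6 ± 0.331), Ccbe1 (2.04 ± 0.185), Postn (0.313 ± 0.0375) and Fbn1 (0.203 ± 0.0270). No neighbours in this order had overlapping libraries. Thbs1 was at rank 10 among all listed genes by FPKM, Sparc at rank 39, Spp1 at rank 56 and Fn1 at rank 96, so 4 of the genes were among the most abundant transcripts of these cells before treatment. In the IL-12 treatment group Spp1 moved above Sparc, and the rest of the order was kept. The ratio of Spp1 to Sparc by FPKM, which is free of the scaling between libraries, was 0.873 and 0.780 without IL-12 against 1.83 and 1.79 with it. By rank among all listed genes, Spp1 went to 19, Fn1 to 65 and Thbs1 to 8, while Sparc went to 48. The spread from Thbs1 to Fbn1 covers genes that are a main product of the cell and scarce genes.

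**Figure D2:**
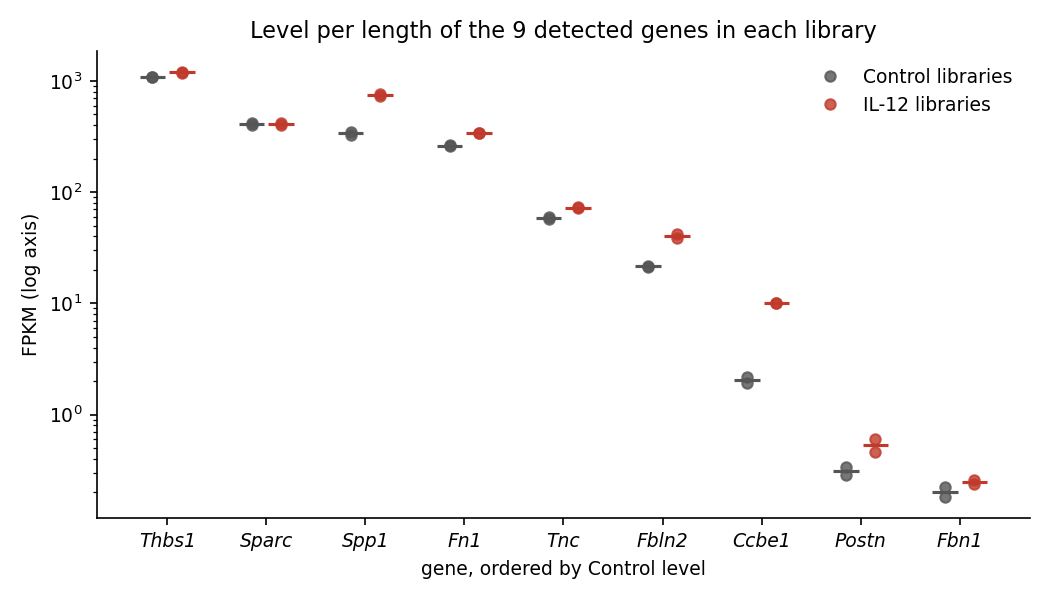
FPKM of the 9 detected genes (vertical log axis) in each of the 4 libraries, with points for single libraries and short lines for group means, in the order of the control level. Grey and red points separate widely for Ccbe1 (2.04 against 10.1 FPKM) and Spp1 (339 against 741 FPKM) and lie together for Sparc (411 against 409 FPKM).

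The 10 genes took 1.25% of all counts in each control library (1.247% and 1.255%) against 1.46% and 1.47% with IL-12. Thbs1 alone made up 53.2% of their counts in both control libraries against 48.2% and 48.9% with IL-12, and Fn1 made up 24.6% to 24.7% and then 26.5% to 26.7%. The gene with the largest fold, Ccbe1, was not the one that added most RNA. Counted as reads, Fn1 gained most, with 913 CPM between the group means and 883 to 944 CPM between single libraries. Thbs1 gained 662 CPM (581 to 743) and Spp1 660 CPM (613 to 707), and these ranges overlap. Per length, Spp1 gained most, with 402 FPKM (374 to 430), which was 63.7% of the summed gain of the genes. Thbs1 then gained 111 FPKM (96.0 to 125) and Fn1 78.5 FPKM (75.6 to 81.4). Ccbe1, with the largest fold, gained 8.05 FPKM.

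**Figure D3:**
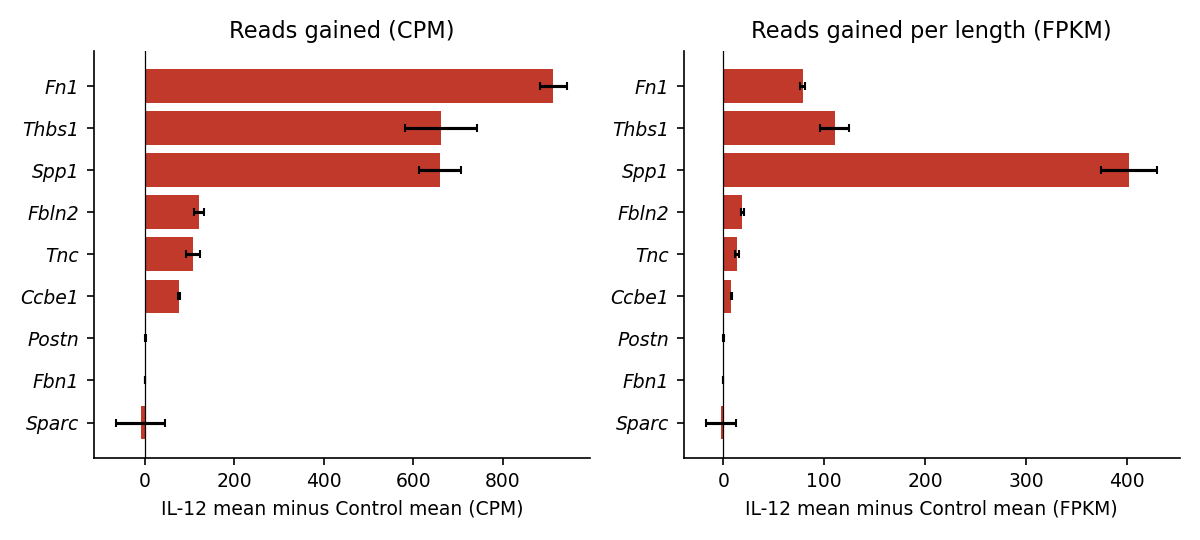
Difference between the IL-12 and control group means for the 9 detected genes, in CPM (left) and in FPKM (right), with bars drawn from 0 and whiskers for the lowest and highest difference between a single IL-12 library and a single control library. Fn1 leads on the left with 913 CPM, and Spp1 leads on the right with 402 FPKM.

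RefSeq promoter windows of GRCm38.p6 were available for 7 of the 10 genes. Windows of Spp1, Tnc and Postn, which rose, and of Thbs2, which had no reads, are shown, 1 for each gene with a window outside annotated exons. Each covers the 250 bases before a start site, 5′ to 3′ on the strand of the gene. Spp1 is on chr5:104434861-104435110 (plus strand), Tnc on chr4:64047016-64047265 (minus), Postn on chr3:54360857-54361106 (plus) and Thbs2 on chr17:14694263-14694512 (minus). Capitals mark matches, on either strand, to TGANTCA (AP-1), TTCNNNGAA (STAT), CAGAC (SMAD), CATTCC (TEAD), TATAAA and the kappaB consensus.
Spp1: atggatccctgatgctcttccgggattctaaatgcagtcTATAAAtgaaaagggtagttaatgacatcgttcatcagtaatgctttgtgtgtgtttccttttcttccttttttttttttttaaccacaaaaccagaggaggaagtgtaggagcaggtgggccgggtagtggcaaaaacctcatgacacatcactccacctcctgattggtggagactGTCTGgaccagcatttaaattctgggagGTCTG
Tnc: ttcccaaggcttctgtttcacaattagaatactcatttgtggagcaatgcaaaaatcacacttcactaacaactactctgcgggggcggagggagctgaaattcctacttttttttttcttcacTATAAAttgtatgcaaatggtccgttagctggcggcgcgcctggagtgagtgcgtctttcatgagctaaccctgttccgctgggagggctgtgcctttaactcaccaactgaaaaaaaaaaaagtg
Postn: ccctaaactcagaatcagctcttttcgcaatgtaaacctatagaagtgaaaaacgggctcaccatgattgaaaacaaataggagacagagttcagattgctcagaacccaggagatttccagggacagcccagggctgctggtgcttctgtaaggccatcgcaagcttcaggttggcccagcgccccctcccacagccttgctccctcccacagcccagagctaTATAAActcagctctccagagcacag
Thbs2: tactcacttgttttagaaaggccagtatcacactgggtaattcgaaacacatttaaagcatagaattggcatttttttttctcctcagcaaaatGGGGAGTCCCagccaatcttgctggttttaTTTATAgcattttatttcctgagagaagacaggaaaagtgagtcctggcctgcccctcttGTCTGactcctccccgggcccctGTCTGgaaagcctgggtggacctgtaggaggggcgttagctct
In the Spp1 window CAGAC matched from -33 to -29 and from -5 to -1, counted from the start site, and TATAAA from -211 to -206. TATAAA matched in Tnc from -126 to -121 and in Postn from -26 to -21. The window of Thbs2 held CAGAC from -66 to -62 and from -43 to -39, TATAAA from -126 to -121 and the kappaB consensus from -156 to -147. Of all 32851 windows, 42.2% held CAGAC, 12.4% TATAAA, 12.6% CATTCC, 7.25% the kappaB consensus, 7.02% TTCNNNGAA and 6.75% TGANTCA. A further window of Spp1, before a start site at 104436192, held CAGAC from -41 to -37, and one of Postn, before 54359267, held it from -191 to -187. The windows that reach into annotated exons are not shown. Among them, that of Sparc, which did not change, held CAGAC from -35 to -31. A further window of Tnc, before 64046936, held CAGAC from -70 to -66 and TATAAA from -205 to -200. Those of Fbn1 and Fbln2 held no match. These matches are descriptions of the letters only.

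Fn1 (ENSMUSG00000026193, chromosome 1 of GRCm38 from 71585520 to 71653200, minus strand) encodes fibronectin. It had 3026 and 3060 CPM without IL-12 against 3943 and 3970 CPM with it. Every IL-12 library exceeded every control library by far more than libraries of 1 group differed. The log2 fold change was 0.38 (± 0.021 SE), a 1.30-fold rise with a 95% interval of 1.26 to 1.34 at an adjusted quasi-likelihood p of 1.68e-10. Fn1 is annotated with 17 transcripts in GENCODE release M21, 9 of them coding, and counts per gene cannot separate its spliced forms. The antisense gene Apol7d overlaps it over 364 bases with 72 counts in all against 265179 for Fn1.

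Among the thrombospondins, Thbs1 was one of the most abundant genes of the cell and Thbs2 was not seen. Thrombospondin-1 is a trimeric protein known to bind CD47 and CD36 and to activate latent TGF-β, and thrombospondin-2 is its close paralog. Thbs1 (ENSMUSG00000040152, chromosome 2 from 118111876 to 118127133, plus strand) had 6534 and 6588 CPM without IL-12 against 7169 and 7277 CPM with it. The groups did not overlap, but the rise was the smallest of those that passed, 1.10-fold (95% interval 1.07 to 1.13). Its log2 fold change was 0.14 (± 0.020 SE), at an adjusted quasi-likelihood p of 2.35e-05. On the deposited FPKM values, limma gave the same log2 fold change of 0.14 and adjusted p of 0.0721 and 0.0692 with pseudocounts of 1 and 0.1, while Thbs1 was called on counts by limma voom and by DESeq2. Thbs2 (ENSMUSG00000023885, chromosome 17 from 14665500 to 14694235, minus strand) had 0 counts in each of the 4 libraries, which allows up to 0.0217 to 0.0237 FPKM. The ratio of Fn1 to Thbs1 by FPKM was 0.241 in both control libraries against 0.286 and 0.283 with IL-12, and these ratios within a library do not depend on the scaling between libraries.

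Tenascin-C, periostin and SPARC differed both in level and in change. Tnc (ENSMUSG00000028364, chromosome 4 from 63959785 to 64047015, minus strand) encodes tenascin-C, a multi-armed glycoprotein made in developing and injured tissue. It had 465 and 445 CPM without IL-12 against 568 and 557 CPM with it, with no overlap. Its log2 fold change was 0.31 (± 0.031 SE), or 1.24-fold (95% interval 1.18 to 1.29), at an adjusted quasi-likelihood p of 3.61e-07. The gene 8030451A03Rik on the opposite strand overlaps Tnc over 67162 bases, with 84 counts in all against 38569.

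Postn (ENSMUSG00000027750, chromosome 3 from 54361109 to 54391037, plus strand) encodes periostin, a fasciclin-domain protein of collagen-rich tissue. It was a scarce transcript, with 56 and 47 counts without IL-12 against 79 and 96 with it, or 2.95, 2.49, 3.99 and 5.30 CPM. The IL-12 libraries were higher but differed from each other by more than the control libraries did. The log2 fold change was 0.77 (± 0.22 SE), a 1.70-fold rise with a wide 95% interval of 1.24 to 2.33, at an adjusted quasi-likelihood p of 0.0112. Without IL-12 replicate 2, the higher of the IL-12 libraries, the log2 fold change was 0.55 and the adjusted p 0.157. Without control replicate 2, the lower of the control libraries, the values were 0.65 and 0.0584 by the same edgeR test. The DESeq2 Wald test did not call Postn either, with a log2 fold change of 0.77 and an adjusted p of 0.0831.

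Sparc (ENSMUSG00000018593, chromosome 11 from 55394500 to 55423183, minus strand) encodes a collagen-binding calcium-binding glycoprotein. It had 1520 and 1589 CPM without IL-12 against 1564 and 1525 CPM with it, so both IL-12 libraries lay between the control libraries. The fold was 0.994 with a 95% interval of 0.956 to 1.03, at an adjusted quasi-likelihood p of 0.844. Its log2 fold change of -0.0090 turned to 0.024 without control replicate 2 and to 0.010 without IL-12 replicate 2, so it has no direction beyond the spread between libraries.

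Spp1 (ENSMUSG00000029304, chromosome 5 from 104435118 to 104441050, plus strand) encodes osteopontin, a phosphoprotein that binds integrins and CD44. It had 577 and 539 CPM without IL-12 against 1246 and 1190 CPM with it. The groups were far apart compared with the spread within them. The log2 fold change was 1.13 (± 0.033 SE) and the fold 2.18, with a 95% interval of 2.08 to 2.29, which lies wholly above the 2-fold limit, at an adjusted quasi-likelihood p of 1.13e-14. By p-value, Spp1 was at rank 8 of the 14095 genes tested, just below Ccbe1 at rank 7. The study measured Spp1 by qPCR with primers that give the position at which the transcript was assayed, and they are shown for that reason, 5′ to 3′.
Spp1 forward primer: ctggcagctcagaggagaag
Spp1 reverse primer: TTctgtggcgcaaggagatt
The forward primer matches the plus strand of chromosome 5 from 104436557 to 104436576, inside 1 exon. The reverse primer matches across a junction, from 104437718 in one exon to 104438227 in the next, and the capitals mark its bases in the later exon. Both primers match 6 of the 7 GENCODE transcripts of Spp1 within the coding span, with a product of 103 or 106 bases, so the primers and the gene counts read nearly the same set of annotated transcripts. The same-strand gene model Gm42793 overlaps Spp1 over 1252 bases, with 113 counts in all against 67367.

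Of the microfibril and elastic fibre genes, Fbln2 rose, while Fbn1 was scarce and did not pass the test. Fbln2 (ENSMUSG00000064080, chromosome 6 from 91212455 to 91272540, plus strand) encodes fibulin-2, which is known to bind fibronectin and fibrillin. It had 136 and 139 CPM without IL-12 against 268 and 248 CPM with it, without overlap. The rise was 1.88-fold (95% interval 1.76 to 1.99), just under the 2-fold limit, with a log2 fold change of 0.91 (± 0.042 SE) at an adjusted quasi-likelihood p of 1.41e-11. Fbln2 and Tnc are both known partners of fibronectin. Their ratio by FPKM was 0.357 and 0.381 without IL-12 against 0.575 and 0.542 with it, which restates their unlike folds.

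Fbn1 (ENSMUSG00000027204, chromosome 2 from 125300594 to 125507993, minus strand) encodes fibrillin-1, the main microfibril protein. It had 51 and 42 counts without IL-12 and 57 in each IL-12 library, or 2.69, 2.22, 2.88 and 3.15 CPM. The IL-12 libraries were slightly higher, without overlap, but the fold of 1.22 had a 95% interval of 0.865 to 1.73 at an adjusted quasi-likelihood p of 0.401. At this depth, neither a small fall nor a rise of the size seen in Postn was outside that interval.

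Ccbe1 (ENSMUSG00000046318, chromosome 18 from 66045302 to 66302739, minus strand) had the largest fold of the genes. CCBE1 is a secreted protein with collagen-like and EGF-like domains that is known to help the protease ADAMTS3 activate VEGF-C in lymphatic development. Its counts were 391 and 342 without IL-12 against 1910 and 1724 with it, or 20.6, 18.1, 96.5 and 95.2 CPM. The groups differed by far more than the spread within them. The log2 fold change was 2.31 (± 0.065 SE), a 4.95-fold rise with a 95% interval of 4.50 to 5.44 at an adjusted quasi-likelihood p of 6.98e-15. By log2 fold change Ccbe1 was at rank 12 and Spp1 at rank 121 of all genes tested. The opposite-strand gene Gm15958 overlaps Ccbe1 over 11466 bases and had 13 and 7 counts without IL-12 against 41 and 38 with it. Whether the counting used strand is not stated, so reads of Gm15958 and Ccbe1 cannot be told apart in the shared stretch, although Ccbe1 had 4367 counts in all against 99.

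The partners of CCBE1 that were listed are Adamts2, Adamts3, Adamts14, Vegfc, Vegfd, Flt4 and Kdr. Most were scarce, and only 2 of the 7 were tested. Vegfc, the growth factor that CCBE1 helps to activate, had 3 and 0 counts without IL-12 against 3 and 0 with it, and Adamts3 had 1, 1, 6 and 2. Flt4, which encodes the receptor VEGFR-3, rose from 10.7 to 15.4 CPM, a log2 fold change of 0.52 (± 0.11 SE) at a quasi-likelihood adjusted p of 0.00105. Vegfd, a related ligand, fell from 58 and 40 counts to 19 and 21, a log2 fold change of -1.29 (± 0.32 SE) at a quasi-likelihood adjusted p of 0.00411. The call of Vegfd was lost without control replicate 1 (adjusted p = 0.0874 by edgeR) and without IL-12 replicate 1 (0.0886).

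Other members of the same protein families were counted in lists beside these genes. Of 25 further matricellular genes, 9 had no count in any library and 6 were tested, of which 5 were higher, 0 were lower and 1 did not pass, with a median log2 fold change of 0.53. Over all genes tested, 16.1% were higher and 14.4% lower. The largest changes in the list were 1.55 for Ctgf, 0.62 for Wisp2 and 0.56 for Fstl1, with standard errors of 0.032, 0.17 and 0.025. Ctgf and Wisp2 are of the CCN family of secreted regulators, and Fstl1 encodes a SPARC-related glycoprotein. Wisp2 was not called without IL-12 replicate 1 (log2 fold change 0.43, adjusted p = 0.176 by edgeR) or by the DESeq2 Wald test (adjusted p = 0.0852). Thbs3, the only other thrombospondin tested, had a log2 fold change of -0.19 and did not pass (adjusted p = 0.0941 by edgeR). Of 20 elastic fibre and fibulin genes, 9 were tested, of which 3 were higher and 6 did not pass, with a median of 0.14. Those that passed were the latent TGF-β binding proteins Ltbp1 (0.58) and Ltbp3 (0.14) and the fibulin Efemp2 (0.23).

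The receptors of these proteins moved both ways. Of 21 listed, 16 were tested, of which 8 were higher, 6 were lower and 2 did not pass, with a median log2 fold change of 0.12, where 16.1% of all genes tested were higher and 14.4% lower. The largest changes were 1.09 for Itgb3 and 1.06 for Cd44, which bind osteopontin, and -0.78 for Itga9, an integrin chain that binds tenascin-C and osteopontin. The integrin chains Itga5 and Itgb1, which together form the classical fibronectin receptor, were higher by 0.22 and 0.41 on the log2 scale (quasi-likelihood adjusted p of 0.00713 and 9.98e-11). This pair, Vegfc, Adamts3 and Thbs3 were picked out after the values were seen. Of 12 enzymes that cut or crosslink matrix proteins, 7 were tested, of which 4 were higher, 1 was lower and 2 did not pass, with a median of 0.14, beside the same 16.1% and 14.4% over all genes. Tll1, a tolloid protease, changed by 3.66 (± 0.59 SE), from 6 and 0 counts to 46 and 33, Mmp9 by 1.44 (± 0.13 SE) and the crosslinking enzyme Tgm2 by -0.24 (± 0.058 SE). The control level of Tll1 rests on control replicate 1, since control replicate 2 had no count. Its log2 fold change was 2.69 without control replicate 2 and 8.30 without control replicate 1, where no control count is left and the value depends on the prior count of the fit. DESeq2 gave it no adjusted p. Tgm2 was not called without IL-12 replicate 1 (adjusted p = 0.0843 by edgeR, log2 fold change -0.20).

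**Figure D4:**
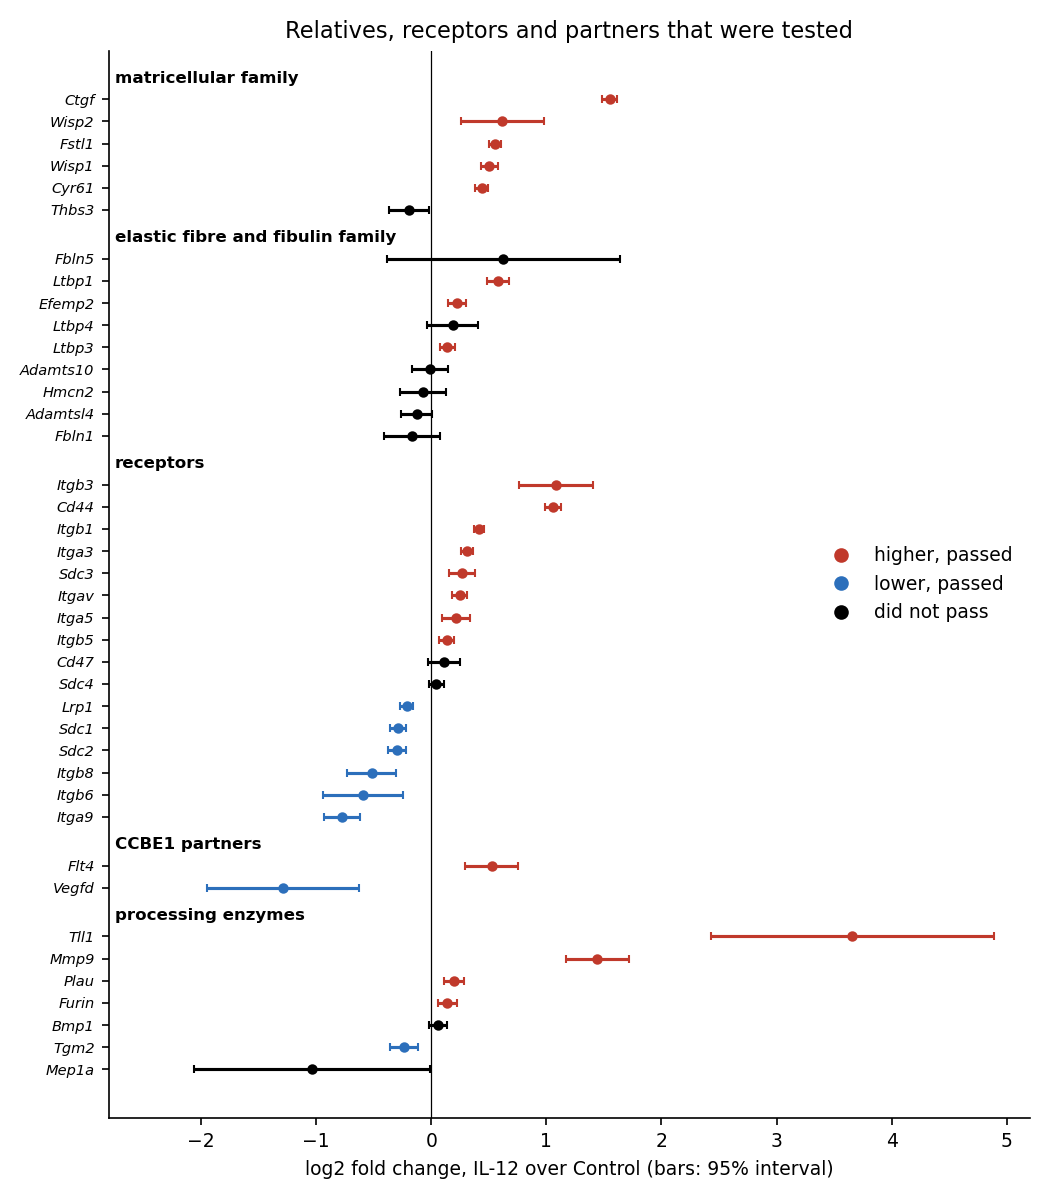
Log2 fold change of the IL-12 treatment group over the control group (horizontal axis) for the tested genes of the 5 lists of relatives, receptors and partners, with 95% intervals as bars, red for higher, blue for lower and black for genes that did not pass. Of the 6 matricellular genes, 5 lie to the right of 0, led by Ctgf at 1.55, Thbs3 lies at -0.19, and the receptors run from Itgb3 (1.09) to Itga9 (-0.78).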

How the data were processed

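RNA was sequenced from 4 libraries of mouse podocytes, 2 of each group, with groups taken from the labels. A deposited count table holds raw read counts per gene, and a second deposited table holds FPKM values, both made by the authors' sequencing company. HISAT2 and StringTie are named in the submitters' processing notes, and the counting program, its options and its use of strand are not given in the sources used here. Those notes name mm9, but 98.3% of 54409 genes shared with GENCODE release M21 had the same coordinates as in its GRCm38 annotation. Coordinates are therefore given as in the count table and read as GRCm38. Of the 10 genes only Ccbe1 differed, by its end position. Raw counts cannot separate transcripts of a gene, and reads shared by overlapping genes may have been counted for either or neither.

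The counts were filtered with filterByExpr (edgeR 4.0.16, R 4.3.3; minimum count 10, minimum total 15), scaled by TMM and fitted by the quasi-likelihood test of IL-12 against control, which left 14095 genes. P-values were adjusted by Benjamini-Hochberg over all of them, and a gene was called at an adjusted p below 0.05. Single exact permutation tests were not used, since 2 against 2 libraries cannot give a p below 0.333. FPKM values, as deposited by the authors, were used for levels between genes. The gene pairs set against each other as FPKM ratios were not fixed in advance. Alternatives were RLE, upper-quartile and total-count scaling, no filter, a filter of 10 counts in every library, DESeq2 1.42.0, limma 3.58.1 with voom, limma on log2(FPKM + 1) and log2(FPKM + 0.1), a replicate block, and leaving out each library. Tables and plots were made with Python 3.11.15 (pandas 2.3.3, matplotlib 3.10.9).

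All 10 matrix genes are named whatever their values. Of each other list, the called genes with the 3 largest absolute log2 fold changes of at least 1 CPM are named, and other names in these lists were picked after their values were seen, among the marker lists to show which markers were detected. Some marker genes that this rule would name are not reported here. The genes and the lists were chosen with earlier results of these data known, so their counts are descriptions, set beside the same share over all genes. Promoter windows were read from RefSeq (GRCm38.p6), and primers from the study's supplement and matched to GRCm38.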

Additional observations from a re-analysis of the deposited data

How the results depend on the processing

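Among the 9 tested matrix genes, the calls of Ccbe1, Spp1, Fbln2, Fn1 and Tnc held under every alternative run, with log2 fold changes of 1.87 to 2.41, 1.08 to 1.18, 0.85 to 0.96, 0.34 to 0.39 and 0.27 to 0.34. Thbs1 was not called on FPKM values, and Postn was not called on FPKM values, by DESeq2 or without control replicate 2 or IL-12 replicate 2. Over the count settings, 6 or 7 of the genes were called and 2 were over 2-fold. Sparc, which was never called, ranged from -0.039 to 0.024 with 1 library left out and was above 0 without control replicate 2 and without IL-12 replicate 2. Over all genes, 4297 were called, against 2705 with DESeq2 and 2528 to 3722 with 1 library left out, the lowest without IL-12 replicate 1. The count over 2-fold was 227, against 103 with DESeq2 and 144 to 254 with 1 library left out, the lowest again without IL-12 replicate 1. The causes of these differences were not tested. No scaling moved the median of all genes by over 0.1 on the log2 scale. Libraries with the same replicate number share only that number, and their deviations correlated at -0.0267. With the replicate block, 4341 of 14095 genes tested were called (2272 higher and 2069 lower), 241 of them over 2-fold, including 7 and 2 of the matrix genes. Of the 40 related genes tested, 29 were called with this block, 21 higher and 8 lower. Postn and Fbn1 had under 100 counts in each library, which left them the widest intervals of the matrix genes, and Thbs2 is limited by the floor of 3 counts.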

Other observations

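Spp1 lies on chromosome 5 in a cluster of genes for secreted phosphoproteins of bone and teeth. Its neighbours in that cluster, Dspp, Dmp1, Ibsp and Mepe, and the SPARC-like gene Sparcl1 beside them, had 0 counts in each of the 4 libraries, so Spp1 was the member of this stretch that was detected. On the other side, Pkd2, which encodes polycystin-2, starts at 104459450 and had 5402 and 5795 counts without IL-12 against 5695 and 5318 with it. These ranges overlap, while Spp1 had 10942 and 10192 counts without IL-12 against 24674 and 21559 with it. These genes were picked for their position after the values of Spp1 were seen.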
